A study of Drosophila melanogaster with 64 samples.

Results

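The region described here is the centromere-proximal part of the Drosophila melanogaster X chromosome, from 13.13 Mb upward. It was taken as every gene of the deposited count table that lies on X and starts above 13.13 Mb, leaving out the ribosomal protein genes whose symbols begin RpL or RpS. This gave 1149 of the 17606 genes in the table, between X 13139199 and 23291729, beside 1477 X genes that start at or below the limit. Coordinates are those of the count table, and the sources used here do not name their genome build. Of the members, 925 are annotated as protein coding, 132 as non-coding RNA, 46 as pseudogenes and 19 as tRNA genes. No read was counted for 88 members, 317 passed the filter on low counts at neither stage, 812 were tested in adult testes and 784 in larval testes. The members were chosen by position, above a limit that came from earlier results of these same libraries; which values set it is not recorded in the sources used here. The levels and changes of the region as a whole, and of lines BM1 and BM5 above all, are therefore a description with no test.

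The 64 libraries are poly(A) RNA of testes from 8 fly lines at 2 stages, with 4 replicate pools for each line and stage. The control is an irradiated parental stock. The other 7 lines each carry a translocation between X and the second chromosome, written T(1;2), and by their labels BM1, BM5, BM6, BM24 and BM46 are male sterile while BM4 and BM21 are fertile. Adult pools held 20 testes of males aged 1 to 5 days, cut away from the seminal vesicle; L3 pools held 15 testes of L3 larvae, late in their last instar, freed of fat body with papain and collagenase. All males, the controls included, carry an X with the duplication Dp(1;1)scV1 and the alleles y2, y+, sc+ and scV1 beside su(wa), wa, cv, v and f, and were reared at 25°C in constant light. The genotype labels pair the sterile translocations with the balancer FM7i, P{ActGFP}JMR3, and the parental stock and the fertile translocations with the attached X C(1)M4, y. Sterility and the stock from which the males came can therefore not be told apart. Each line is a single rearrangement, and nothing in the labels says that replicate pools came from separate crosses, so p-values measure the spread between pools.

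Males of this species have a single X and 2 copies of each autosome. In somatic cells the male-specific lethal complex, a set of proteins and non-coding RNAs, binds active X genes and raises their transcription; germ cells lack that complex, and the X of spermatocytes is expressed at a lower level relative to the autosomes. Translocations that break the X and join its parts to an autosome very often sterilise males, with spermatogenesis failing after meiosis, and which X genes change in such testes is the question these libraries bear on. A testis of a late larva holds mostly spermatogonia and primary spermatocytes, whereas an adult testis holds every stage up to sperm. In such mixed tissue, fewer cells of a type and less RNA per cell cannot be told apart.

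Sequencing depth, as counts assigned to genes, was 8961413 to 21275143 in the L3 libraries and 2971832 to 24650332 in the adult libraries, apart from 3 adult libraries of BM6 and BM24 that held under 1000000 counts, down to 20387. Those 3 are left out of the means given below, so that BM6 adults have 3 libraries and BM24 adults 2; the tests keep them. Germline markers were at a median log2 CPM (counts scaled to 1000000 per library) of 7.85 to 8.27 in every combination of stage and sterility. Accessory gland genes stood at a mean log2 CPM of 5.10 to 8.60 in 7 adult libraries, which were replicates 1 and 4 of BM1, 2 and 3 of BM4, 1 and 2 of BM6 and 4 of BM21, and at most at 2.84 in the others. In L3 testes the 8 fat body markers had a median of 6.56 (4.55 to 7.58) in the sterile lines and 3.99 (3.13 to 5.55) in the fertile ones, and in adults the 11 muscle markers had a median of 4.43 (3.70 to 5.56) and 3.57 (3.05 to 4.33). In adults the fat body markers had medians of 1.85 and 1.75, with BM46 replicate 1 at 6.81, BM24 replicate 4 at 5.08, and both BM24 libraries of under 1000000 counts at 8.48 and 9.13. The part of these tissues in the results below was not tested, except where values without those libraries are given.

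The level of the region differed most between BM5 and BM1. It was measured in each library as the mean log2 CPM of the tested members minus that of the tested genes of chromosome 3. In parental testes this level difference was 0.068 ± 0.027 (SD, n = 4) in L3 and -0.107 in adults. In BM5 it was 0.208 ± 0.019 (SD, n = 4) in L3 and 0.110 in adults. In BM1 it was -0.074 ± 0.008 (SD, n = 4) in L3 and -0.290 in adults. At both stages all 4 libraries of BM5 lay above, and all 4 of BM1 below, the range of the parental libraries. With medians over genes in place of means, the L3 libraries of BM1 (-0.034 to 0.018) overlapped the parental ones (-0.020 to 0.036). The adult means of the other lines were -0.101 in BM4, -0.101 in BM21, -0.107 in BM46, -0.141 in BM24 and -0.197 in BM6, and their L3 means ran from -0.008 in BM6 to 0.126 in BM24.

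**Figure D1:**
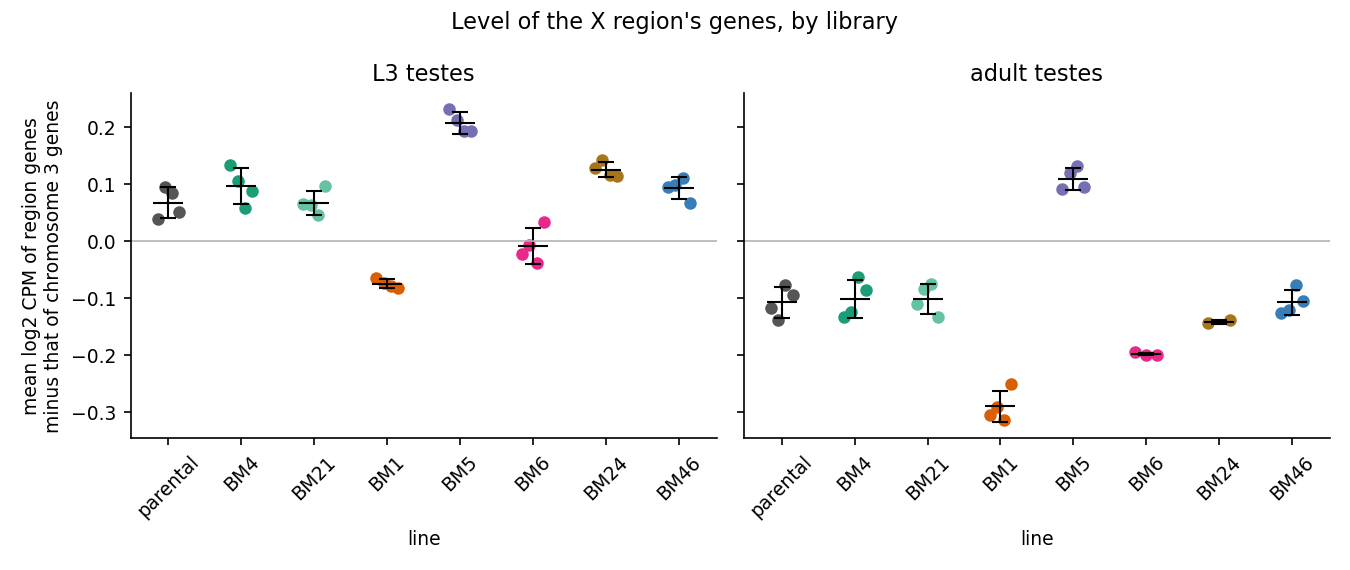
Level of the X region above 13.13 Mb in each library, as mean log2 CPM over tested members less the mean over tested chromosome 3 genes (y axis), by line (x axis) and stage; points are libraries with at least 1000000 counts, horizontal marks are group means and error bars are SD. BM5 stands highest at both stages (means 0.208 in L3 and 0.110 in adults) and BM1 lowest (-0.074 and -0.290).

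The rest of the X did not move with the region in these lines. In BM1 the rest of the X stood 0.226 ± 0.005 (SD, n = 4) above chromosome 3 in L3, against 0.071 ± 0.007 (SD, n = 4) in the parental stock, while the region stood below it. The difference between the region and the rest of the X was -0.300 in BM1 L3 libraries and -0.003 in parental L3 libraries. In BM5 that difference was 0.220 in L3, with the rest of the X at -0.013. The sterile lines BM6 and BM46 had a region that stood lower than the rest of the X as well, by -0.112 and -0.096 in L3.

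As a share of all counts, the region took 3.69% ± 0.13 (SD, n = 4) in adult parental testes, 5.37% ± 0.13 (SD, n = 4) in BM5 and 3.18% ± 0.083 (SD, n = 4) in BM1. In L3 testes the shares were 4.30% ± 0.063, 5.53% ± 0.029 and 4.12% ± 0.012 (SD, n = 4 each). The 10 members with the highest adult parental levels made up 0.705% of counts in adult parental libraries, 1.33% in BM5 and 0.590% in BM1. The other members went from 2.99% in the parental stock to 4.04% in BM5 and 2.59% in BM1, so the shift was not limited to the 10 highest.

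Gene by gene, more members were higher than lower in BM5 and more were lower than higher in BM1. Calls are from edgeR's quasi-likelihood test on counts, with Benjamini-Hochberg adjusted p under 0.05 over all tested genes. In adult BM5, 247 of 812 tested members rose (30.4%) and 49 fell (6.03%), beside 15.6% and 15.4% of all tested genes; with library-size scaling the split was 216 and 79. In L3 BM5, 329 of 784 rose and 88 fell, beside 22.1% and 21.9% of all genes. In adult BM1, 119 rose and 243 fell, beside 26.8% and 24.4% of all genes; with library-size scaling, which moves the median of all genes in that comparison by -0.12, the split was 76 and 317, and with DESeq2 size factors, which move it by 0.06, 151 and 195. In L3 BM1, 212 of 784 were called, beside 43.5% of all genes; 57 of them rose, beside 22.5% of all genes, and 155 fell, which is 19.8% of the members beside 21% of all genes. The limit of the region came from earlier results of these libraries, which may have held these contrasts, and nothing is read from the counts. The median log2 fold change of the tested members was 0.16 and 0.18 in adult and L3 BM5, and -0.09 and -0.06 in BM1. Other scalings put the adult medians at 0.06 to 0.18 in BM5, and at -0.21 (library size), -0.06 (chromosome 3 genes) and -0.02 (DESeq2 size factors) in BM1. The X genes below the limit had medians of -0.07 and -0.04 in BM5 and of 0.25 and 0.20 in BM1.

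In the other sterile lines the member medians were 0.05, 0.03 and -0.02 in adult BM24, BM46 and BM6 and 0.12, 0.09 and 0.01 in L3. The X genes below the limit had 0.05, 0.11 and 0.09 in the same adults and 0.10, 0.17 and 0.10 in L3. Adult BM24 had 153 members up and 51 down, beside 15.0% and 13.5% of all genes; without BM24 replicate 4 the members called were 130 in all, beside 20.7% of all genes, in place of 204, beside 28.5%. Adult BM46 had 158 up and 100 down, beside 17.0% and 17.0% of all genes, and 228 called in all without BM46 replicate 1, beside 30.8%. Adult BM6 had 135 up and 113 down, beside 19.8% and 18.7%. With library-size scaling the splits became 130 up and 125 down in adult BM46 and 118 up and 144 down in adult BM6, and with DESeq2 size factors BM6 had 129 and 128. In L3 testes BM24 had 232 up and 35 down (background 23.2% and 19.7%), BM46 had 233 up and 92 down (23.7% and 21.8%), and BM6 had 153 up and 120 down (23.1% and 21.7%). Of the X genes below the limit, 26.2% were up and 5.73% down in L3 BM24, 38.9% and 9.74% in BM46, and 32.7% and 11.6% in BM6. Without the accessory gland libraries the members called in adult BM6 were 103 in all, beside 22.2% of all genes, in place of 248, beside 38.5%. That setting left adult BM6 with replicate 4 and with replicate 3, which held 20387 counts. How far the loss of replicates lowered that count was not tested. In adult BM1, left with replicates 2 and 3, the members called were 232, beside 38.4%, in place of 362, beside 51.2%. DESeq2 called 178 members in adult BM1, beside 32.2% of all genes, 94 in BM6 (21.2%), 108 in BM24 (14.8%) and 101 in BM46 (17.9%).

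In the fertile translocations, fewer adult members were called than in the sterile ones with all libraries. Without the accessory gland libraries BM21 had 118 called, beside 18.9% of all genes. The 103 of sterile BM6 in that setting rest on replicate 4 and on replicate 3, which held 20387 counts. They are therefore not set against BM21. In adult BM4, 47 members rose and 26 fell, beside 9.12% and 8.69% of all genes (17.8% in either direction), and without the accessory gland libraries 47 were called in all, beside 13.4%. With library-size scaling 75 rose and 17 fell, and with DESeq2 size factors 69 and 18. DESeq2's own test called 28 in adult BM4, beside 9.08% of all genes, and 60 in adult BM21, beside 9.30%. In adult BM21, 119 were called, beside 19.6% of all genes, of which 23 fell, beside 8.61%, and without parental replicate 3 the members called were 73, beside 15.1% of all genes, in place of 119. Without the 3 libraries of under 1000000 counts, which enter the shared estimate of the spread, 157 members were called in adult BM4, beside 26.6% of all genes, and 210 in adult BM21, beside 28.9%. The sterile lines had more calls in that setting too. They had 440 in BM1 (59.3% of all genes), 364 in BM5 (40.2%), 347 in BM6 (48.3%), 344 in BM46 (43.4%) and 303 in BM24 (36.4%). In L3 testes BM4 had 153 up and 33 down, beside 20.1% and 17.5%, and BM21 had 156 up and 51 down, beside 19.2% and 15.7%. As shares, 19.5% of members were up and 4.21% down in L3 BM4, and 19.9% and 6.51% in BM21. The X genes below the limit had 21.4% and 3.73% in L3 BM4 and 20.4% and 6.1% in BM21. All 7 line comparisons of a stage share the same 4 parental pools.

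Along the chromosome, the change of BM1 turned close to the limit. That limit came from earlier results of these libraries, which may have held these contrasts. The place of the turn is therefore a description with no test. In windows of 1 Mb, the median log2 fold change of BM1 over parental adults was 0.26 over 63 tested genes just below 13.13 Mb and -0.03 over 81 genes just above it. In L3 the medians were 0.30 and -0.07. BM5 had no such turn at this place: its adult medians were 0.25 just below and 0.13 just above, and it was -0.05 in the window before that. Inside the region the adult medians of BM1 lay between -0.01 and -0.22 in the 10 windows with more than 7 tested genes. Those of BM5 lay between 0.05 and 0.36 in all of these but the window from 22.13 Mb, next to the centromeric heterochromatin, where the median was -0.16 over 38 genes with 1 called higher and 8 lower. Among these 10 windows the highest in BM5 at both stages began at 20.13 Mb, at 0.36 in adults and 0.33 in L3. The window from 23.13 Mb, with 7 tested genes, had BM5 medians of 1.20 in adults and -0.81 in L3.

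**Figure D2:**
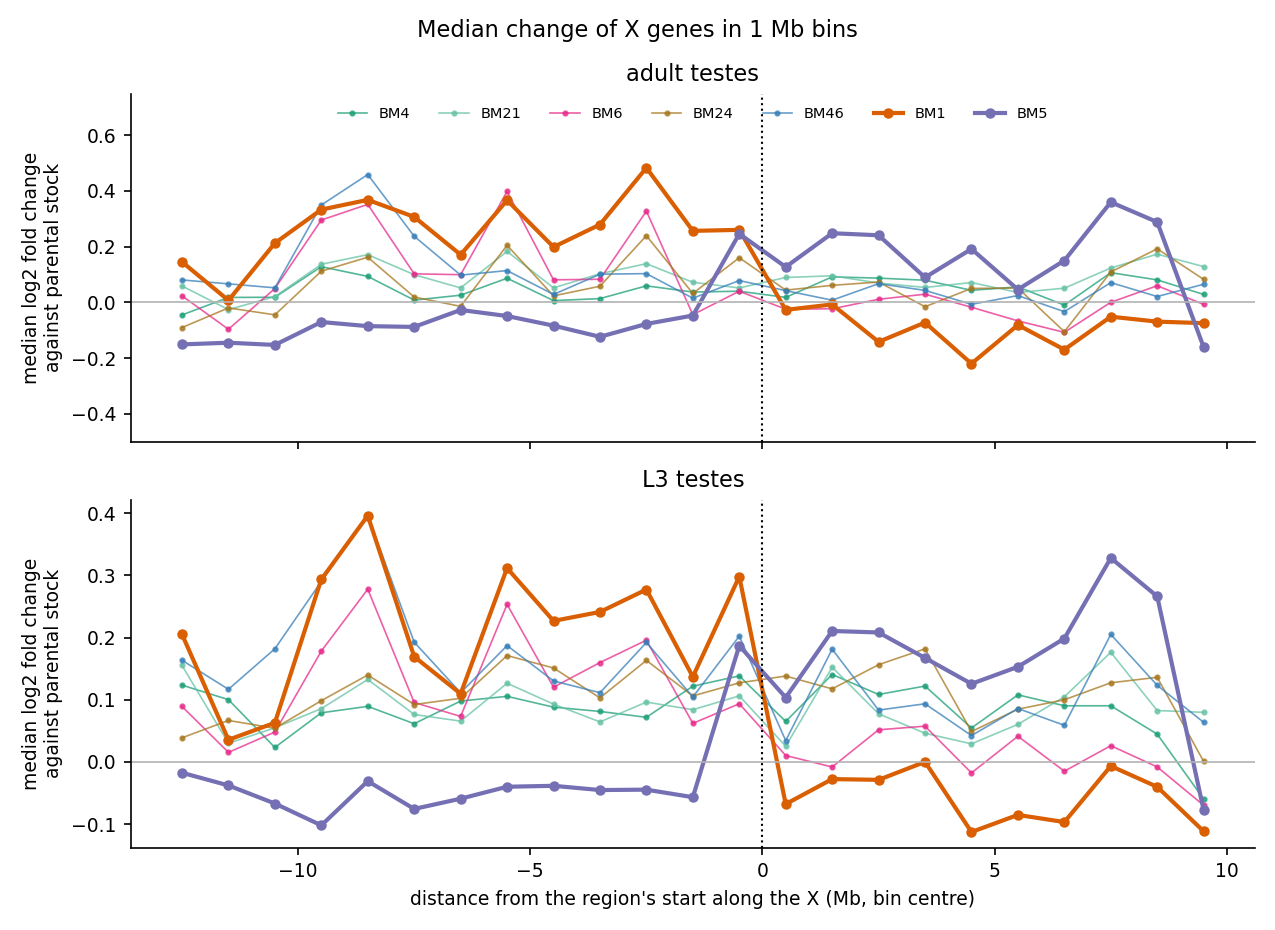
Median log2 fold change over the parental stock in windows of 1 Mb along X (x axis, distance from the 13.13 Mb limit in Mb; y axis, median over tested genes, for windows with at least 20), by line and stage. In adult BM1 the median passes from 0.26 in the window below the limit to -0.03 in the window above it, while adult BM5 has 0.25 and 0.13 there.

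Single genes at the limit varied more than the window medians. The 5 genes of the table just outside it are CG42237, CG32638, snmRNA:204, CG15717 and MFS10, and the 5 members just inside are CG32645, CG4318, CG4332, Bap60 and CG12096. In BM1 adults CG32638 had a log2 fold change of -0.04, CG4332 one of -0.06 and CG4318 one of -0.79. The nearest tested genes with adult BM1 values above 1 were Fer3HCH (1.40), which encodes a ferritin heavy chain, CG2209 (1.07), CG15719 (1.49) and rad (1.25), all outside. Bap60, a subunit of the Brahma chromatin remodelling complexes, was at -0.25 in adult BM1. Over the 10 nearest tested genes on each side the adult BM1 median was 0.30 outside and -0.12 inside, and in L3 0.21 and -0.03. In BM5 the same medians were 0.48 and 0.28 in adults and 0.15 and 0.13 in L3.

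By expression level, the rise in BM5 was greatest among the members with the highest levels. Tested members were split at the quartiles of mean log2 CPM over the libraries of both stages with at least 1000000 counts. For members tested in adults the cuts were at 2.20, 4.17 and 5.72, with 203 in each quartile. From the lowest to the highest quartile the adult BM5 medians were 0.35, 0.03, 0.06 and 0.46. In the top quartile 127 members rose and 8 fell (62.6% and 3.94%), beside 8.05% and 14.9% of chromosome 3 genes and 9.32% and 11.6% of the X genes below the limit. Over the same range of levels, X genes below the limit had a BM5 median of -0.03 and chromosome 3 genes one of -0.01. In L3 the BM5 medians were 0.29, 0.00, 0.13 and 0.33, and in the top quartile 138 of 196 rose (70.4%), beside 15.4% of chromosome 3 genes.

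In adult BM1 the medians from the lowest to the highest quartile were 0.20, -0.10, -0.16 and -0.18, and in L3 BM1 -0.05, -0.09, -0.08 and -0.03. In adult BM1, in the top quartile 20 members rose and 85 fell (9.85% and 41.9%), beside 14.7% and 34.5% of chromosome 3 genes. X genes below the limit at the same levels had a median of 0.35, with 171 of 311 up, and chromosome 3 genes one of -0.11. In L3 BM1 the top-quartile medians were -0.03 for the members and 0.34 for the rest of the X. Adult BM6 and BM46 had top-quartile medians of 0.11 and 0.19 in the region and of 0.35 and 0.27 on the rest of the X. Adult BM24 had 0.21 and 0.23. Quartiles were set on the means over the libraries of both stages with at least 1000000 counts, those compared included.

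**Figure D3:**
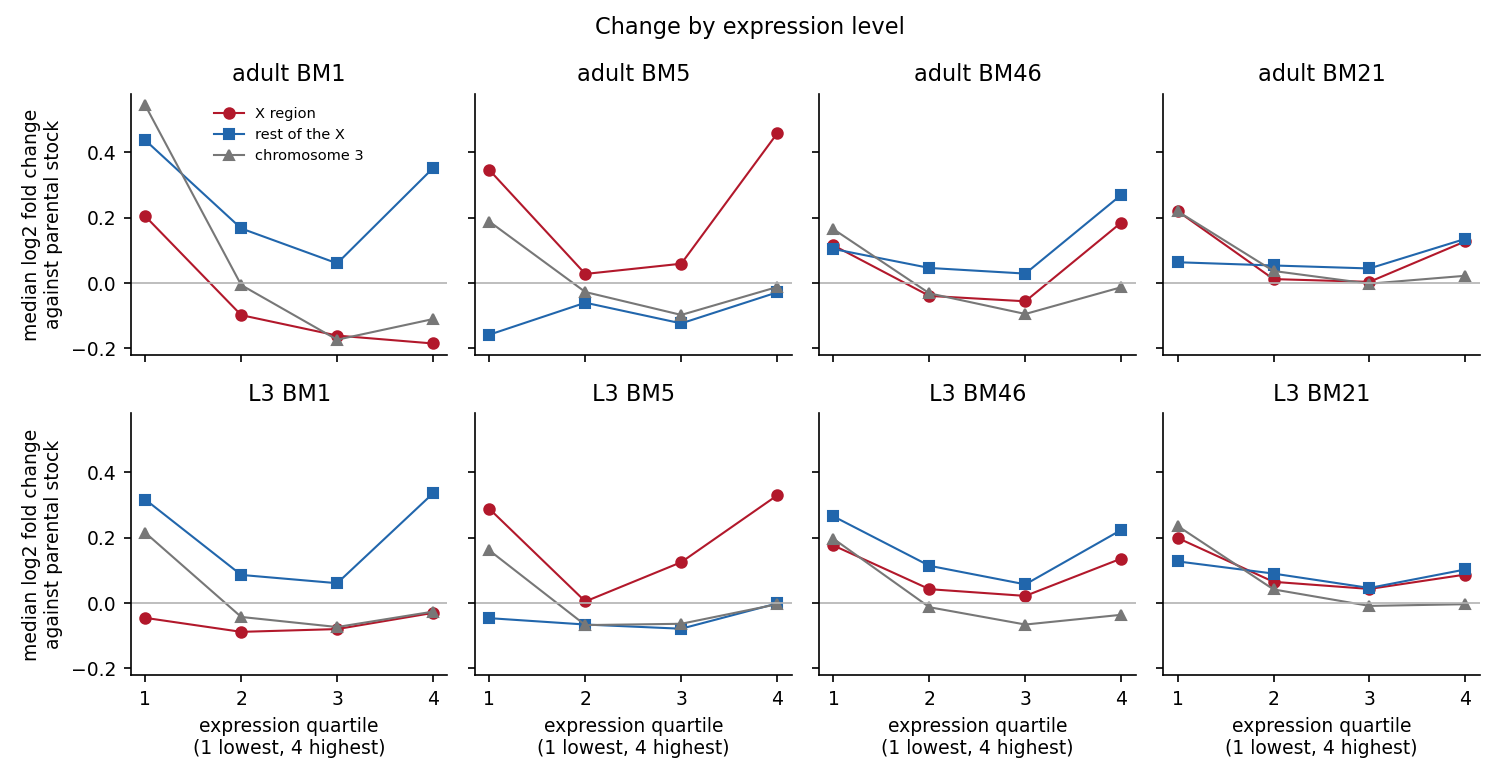
Median log2 fold change over the parental stock in quartiles of expression level (x axis, lowest to highest; y axis, median over tested genes), for the region above 13.13 Mb, the rest of X and chromosome 3 in BM1, BM5, BM46 and BM21 at both stages. In the top quartile of adult BM5 the region is at 0.46, the rest of X at -0.03 and chromosome 3 at -0.01; in adult BM1 the region is at -0.18 and the rest of X at 0.35.

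Split by how genes behave between stages in the fertile line BM21, which shares no library with the BM5 comparison, 247 tested members were higher in adults than in L3 and 321 were lower. The adult-high members had a median of 0.55 in adult BM5, against 0.12 for adult-high chromosome 3 genes. The adult-low members had 0.03, against -0.14 on chromosome 3. In adult BM1 the adult-high members were at 0.11 and the adult-low ones at -0.33, against 0.23 and -0.27 on chromosome 3. In adult BM46 the same values were 0.33 and -0.14, against 0.16 and -0.16.

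Of the 10 members with the highest levels in adult parental testes, 5 are known only by a CG number. CG8565 stood first at both stages, and its adult CPM was 1327, 1281, 1256 and 1265 in the parental pools, 2561, 2382, 2459 and 2297 in BM5, and 817.5, 1065, 880.1 and 809 in BM1. The 3 sets of libraries did not overlap. CG8565 rose in adult BM5 by a log2 fold change of 0.92 ± 0.14 (SE, n = 4 per group, edgeR adjusted p = 5.82e-06). It fell by 0.51 in adult BM1 (SE 0.14, edgeR adjusted p = 0.00346), a call that was lost without the accessory gland libraries (-0.36). In L3 it rose in BM5 by 0.69 ± 0.075 (SE) and was at 0.05 in BM1.

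After CG8565 in adult parental testes came CG32548 (1145 CPM), CG1324 (1015), hydra (943), Nna1 (940), SdhBL (804), CG6481 (511), xmas (509), mud (460) and CG9570 (442). SdhBL encodes a testis-specific relative of succinate dehydrogenase subunit B, Nna1 a cytosolic carboxypeptidase of the kind that trims tubulin tails, mud a spindle-orientation protein that binds microtubules, and xmas a subunit of the mRNA export machinery. hydra is a young testis gene of the melanogaster lineage. All 10 were called higher in adult BM5, beside 15.6% of all genes and 62.6% of the members of the top quartile, with log2 fold changes from 0.75 (mud) to 1.70 (CG9570). The call of Nna1 was marginal (adjusted p = 0.0447) and was lost when any 1 of the 8 compared libraries was left out, at 0.82 to 0.93. A BM24 library of under 1000000 counts put Nna1 at 8169 CPM, against 1148 to 1379 in the other BM24 libraries.

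CG9570 showed the greatest BM5 change of these genes. Its adult CPM was 479.9, 469, 409.7 and 409.8 in the parental pools and 1422, 1457, 1460 and 1396 in BM5. In BM1 it was 475.3, 528.9, 492.3 and 483, overlapping the parental pools, with a log2 fold change of 0.18 that was not called. In L3 it rose in BM5 by 1.17 ± 0.063 (SE, edgeR adjusted p = 3.56e-16). SdhBL and mud fell in adult BM1 by 0.51 and 0.77 on the log2 scale, and both calls were lost without the accessory gland libraries (adjusted p = 0.103 and 0.0599). CG6481 was called higher in adult BM1 (0.55), a call lost without any 1 library other than BM1 replicate 2 (0.47 to 0.60) and without the accessory gland libraries. Per kb of gene length the order in adult parental testes was CG1324 (703.2 CPM per kb), CG32548 (645.4), CG8565 (484.7) and SdhBL (412.3).

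**Figure D4:**
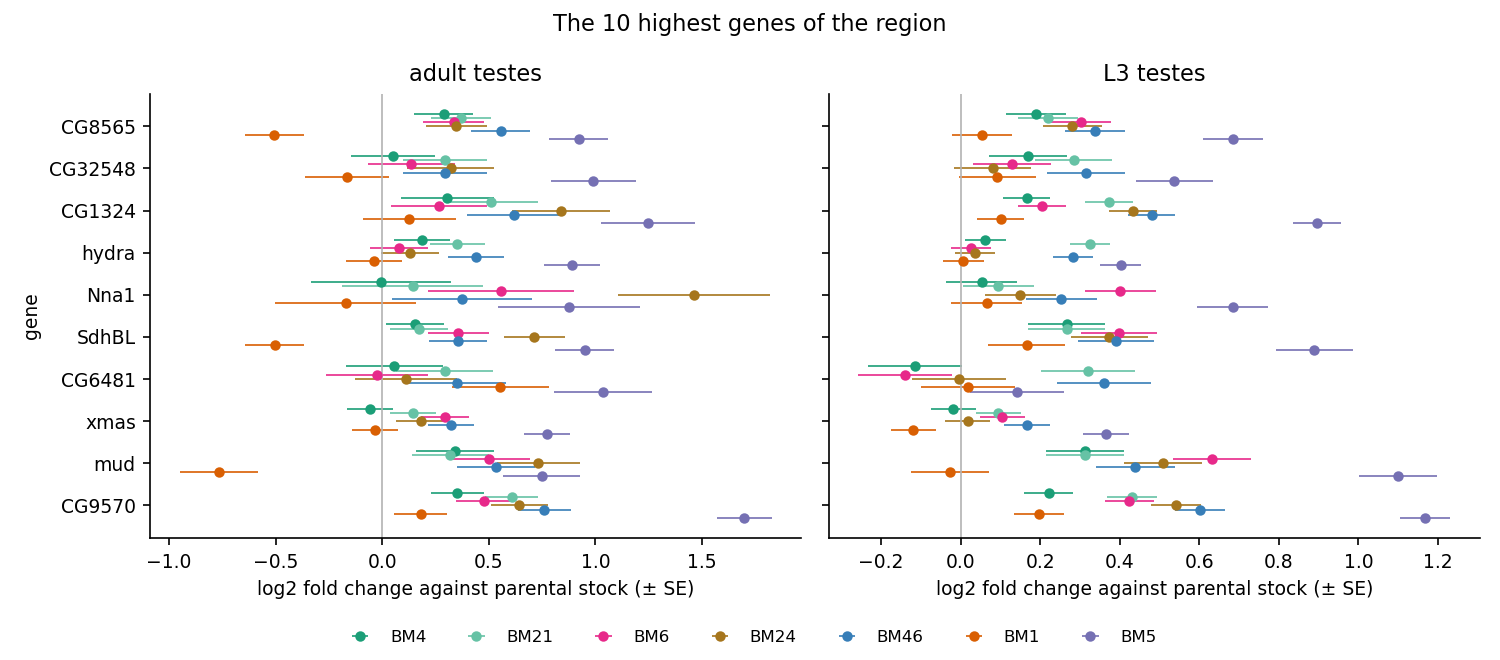
Log2 fold change over the parental stock (x axis; points are edgeR estimates and bars ± SE) of the 10 members with the highest adult parental CPM (y axis), by line, in adult and L3 testes. Adult BM5 lies to the right of 0 for each gene, from 0.75 for mud to 1.70 for CG9570, and in L3 testes it runs from 0.14 for CG6481 to 1.17 for CG9570.

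In the JAK/STAT pathway the ligands upd1, upd2 and upd3, all members, signal through the receptor dome to maintain the stem cell niche of the testis tip. upd1, expressed in hub cells, stood at 33.9, 31.7, 34.9 and 36.5 CPM in adult parental pools and at 17.2 to 21.7 CPM in L3. Its adult log2 fold change was 0.69 in BM6, 0.60 in BM24, 0.43 in BM46 and 0.48 in BM21, all called, and 0.28 in BM1 and 0.27 in BM5, not called. In L3 none of the 7 lines had a call for upd1. dome stood at 96.7 and 76.8 CPM in parental adults and L3, and Socs16D, a member of the family of inhibitors of such receptors, at 44.7 and 54.4 CPM. In adult BM1 Socs16D fell by 0.55 (SE 0.14, edgeR adjusted p = 0.00196). upd2 and upd3 had mean levels of 0.202 and 1.17 CPM in adult parental pools and of 0.186 and 0.180 CPM in L3. Of the 5 tested members of this list, 4 were called higher in L3 BM5, beside 22.1% of all genes and 42% of the region's members. In adult BM5 0 were called higher, beside 15.6% and 30.4%. et, a relative of dome, was called higher in L3 BM46 by 1.23 (SE 0.24, edgeR adjusted p = 8.58e-05) and, at 1.03, 0.73 and 0.72, in L3 BM1, BM4 and BM5. The L3 BM5 calls of et and of dome itself were each lost without 1 of 3 libraries (parental replicates 2 or 3 and BM5 replicate 1 for et, parental replicates 2 or 4 and BM5 replicate 1 for dome), at values of 0.63 and 0.18 to 0.23.

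Of 7 genes of DNA repair, checkpoint and division, 5 were called lower in adult BM1, beside 24.4% of all genes and 29.9% of members. Axs was called higher. mei-41, the fly ATR kinase of the DNA damage checkpoint, stood at 13.9, 13.9, 12.4 and 12.9 CPM in adult parental pools and at 5.91, 7.42, 6.49 and 6.61 in BM1. These did not overlap, and mei-41 fell by 0.99 (SE 0.14, edgeR adjusted p = 1.68e-06). It was also called lower in L3 BM1 (-0.38) and in adult BM6 (-0.66) and adult BM46 (-0.79), but not in BM5 (-0.19). mus101, a checkpoint scaffold, had -0.70 in adult BM1, and the gamma-tubulin ring subunits Grip84 and Grip91 had -0.59 and -0.50. Pp4-19C, a phosphatase catalytic subunit of the centrosome, had -0.36, and -0.28 with its call lost without BM1 replicate 2. Pp1-13C, a catalytic subunit of protein phosphatase type 1, behaved otherwise: it was at 0.06 in adult BM1 and rose in adult BM5 by 0.95 (SE 0.14), from 207.6 to 270.2 CPM in the parental pools to 451.5 to 483.2 CPM. Axs, a protein of the spindle envelope, was called higher in adult BM1 at 0.47, a call lost without the accessory gland libraries (0.17) and without parental replicate 3, BM1 replicate 1 or BM1 replicate 4 (0.36 to 0.39).

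Among 13 tested genes of transcription and chromatin, 0 were called higher and 6 lower in adult BM1, beside 26.8% and 24.4% of all genes. In adult BM5, 5 were called higher and 2 lower, beside 15.6% and 15.4%, and in L3 BM5 8 higher and 1 lower, beside 22.1% and 21.9%. Of all tested members, 14.7% were called higher and 29.9% lower in adult BM1. Those shares were 30.4% and 6.03% in adult BM5 and 42% and 11.2% in L3 BM5. disco, a zinc finger factor of the nervous system and appendages, stood at 8.17, 7.56, 8.63 and 11.4 CPM in adult parental pools and at 3.61, 3.29, 3.91 and 3.72 in BM1. It fell by 1.24 (SE 0.18, edgeR adjusted p = 1.74e-06), and by 0.60 in L3 BM1; in L3 BM5 it rose by 0.72. Its neighbour disco-r was called higher in all 7 lines in L3, at 0.94 in BM1 and 1.80 in BM5; in adults it rose by 1.64 in BM5 and by 1.13 in BM6 and was at 0.54 in BM1, not called. e(y)3, a subunit of the PBAP chromatin remodelling complex, fell in adult BM1 by 0.86 (SE 0.14) and in L3 BM1 by 0.24, and was called lower in adult BM6 (-0.61), BM46 (-0.55), BM21 (-0.39) and BM5 (-0.41) as well. The BM5 call of e(y)3 was lost without parental replicate 3 or 4 or BM5 replicate 4 (-0.36 to -0.37). sno (strawberry notch), a nuclear protein of the Notch and EGF receptor pathways, rose in BM5 by 0.88 in adults and 0.78 in L3. The adult CPM of sno was 378.7, 366.5, 328.1 and 362.6 in the parental pools and 680.5, 718.9, 647.7 and 583.5 in BM5. It was called lower in adult BM1 at -0.34, a call lost without the accessory gland libraries (-0.16).

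Genes known for neural signalling were low, with exceptions. Of 14 listed members, 10 were tested in adults. stnA and stnB have the same coordinates and stood at 0 CPM in the parental pools. How reads over both genes were counted is not known, so their level is uncertain. rdgB, which encodes a phosphatidylinositol transfer protein first found in photoreceptors, was the highest of them. It stood at 312.7, 325.7, 303.6 and 300.4 CPM in adult parental pools and at 769.9, 716.9, 778.9 and 770.3 in BM5, with no overlap. The log2 fold change of rdgB in BM5 was 1.29 ± 0.12 (SE, edgeR adjusted p = 6.79e-10) in adults and 0.79 ± 0.064 (SE) in L3, and it was called higher in adult BM6, BM24, BM46 and BM21 as well, at 0.72, 0.60, 0.67 and 0.38. In BM1 it was at 0.27, not called. para, the voltage-gated sodium channel gene, rose from 0.37 to 0.58 CPM in adult parental pools to 2.20 to 3.83 CPM in BM5, by 2.81 (SE 0.35). NetA, a Netrin guidance ligand, was called higher in BM5 (0.57 in adults and 0.52 in L3) and lower in adult BM1 (-0.53). The other tested genes of the list did not all rise in adult BM5. Frq1 was at 0.48, rut at 0.37 and Frq2 at 0.14, while shakB and Sh were at -0.07, mnb at -0.08 and NetB at -0.41.

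Of 7 metabolic enzymes, 3 were called higher and 0 lower in adult BM5, beside 15.6% and 15.4% of all genes, and 3 higher and 1 lower in adult BM1, beside 26.8% and 24.4%. Of all tested members, 30.4% were called higher and 6.03% lower in adult BM5, and 14.7% and 29.9% in adult BM1. Zw, glucose-6-phosphate dehydrogenase, r, which encodes the first enzymes of pyrimidine synthesis, and slgA, proline dehydrogenase, were called higher in adult BM5 by 0.51, 0.53 and 0.59. r was the enzyme called lower in adult BM1, at -0.40, a call lost without the accessory gland libraries (-0.28). shi, the fly dynamin, was called higher in BM5 by 0.56 in adults and 0.45 in L3. Of 13 genes of polarity, adhesion and membrane traffic, 2 were called higher in adult BM5 (15.6% of all genes) and 8 in L3 BM5 (22.1%), and 10 in L3 BM24 (23.2%) and 8 in L3 BM4 (20.1%). The shares of all tested members called higher there were 30.4%, 42%, 29.6% and 19.5%, in the same order. Sdic1, a copy of the testis-specific dynein intermediate chain gene, rose in BM5 by 0.91 in adults and 0.44 in L3. Its near-identical copies and its parent genes sw and AnxB10 share sequence, and reads may have been split among them.

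The Stellate genes on this part of X, copies of a casein kinase regulatory subunit relative that testes silence with piRNAs, had counts at or near 0. Their copies are near identical, and no label says whether reads matching several of them were counted, so these values do not show how much the family was expressed. Of 13 members of that family, 12 were not tested at either stage in the line comparisons. Ste12DOR was tested in L3 and was called higher in BM4 (log2 fold change 2.33, SE 0.49), at 10.4, 5.48, 0.374 and 6.87 CPM against 0.687 to 1.62 CPM in parental L3 pools. Which copy gave the reads is uncertain. f (forked), whose mutant allele all males carry by their labels, was expressed in every line and was highest in BM5.

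Some members differed in a single line from all 7 others. They were picked after their values were seen, as members at least 0.8 on the log2 scale (with 0.25 CPM added) beyond every other line at both stages. 8 genes met this: CG12096 in BM1, CG8578 in BM6, CG11068 in BM4, CG9941 in BM21, Muc12Ea in BM46 and f in BM5, with CG42580 in BM24 and CG6123 in BM21 at low levels. Their fold changes are a description of that choice.

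CG12096 (X 13159604 to 13162854) is the fifth member from the limit. Its adult CPM was 57.2, 54.7, 57.5 and 60.0 in the parental pools and 12.4, 11.6, 11.7 and 11.02 in BM1. In L3 it was 89.0 to 95.9 in the parental pools and 28.1 to 31.3 in BM1. No other line came below 48.3 CPM in adult libraries of over 1000000 counts. The log2 fold change in BM1 was -2.27 in adults and -1.66 in L3, while the 10 nearest tested genes had -0.79 to 0.35 in adults, 3 of them called, beside 51.2% of all genes.

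CG8578 (X 15844476 to 15847858) was low in BM6. Its L3 CPM was 15.5, 15.8, 15.6 and 13.2 in the parental pools and 1.72, 1.96, 1.82 and 1.76 in BM6. In adults BM6 was at 2.12 to 2.53 CPM and the parental stock at 8.47 to 11.8. The log2 fold changes were -3.05 and -2.19, and the 10 nearest tested genes had -0.68 to 0.49 in adults.

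CG11068 (X 13955236 to 13956574) was low in BM4, a fertile line, and more so in adults. Its adult CPM was 393.5, 405.9, 431.3 and 448.1 in the parental pools and 12.2, 12.4, 12.4 and 13.3 in BM4. In L3 BM4 stood at 144.3, 88.4, 174.3 and 136.6 against 241.6 to 277.8 in the parental pools. The log2 fold change was -5.05 in adults and -0.86 in L3. CG11068 lies inside mamo, on the other strand, and mamo itself had -0.09 and 0.01 in BM4, not called. In BM5 CG11068 went the other way, at 1001 to 1172 CPM in adults.

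CG9941 (X 13718734 to 13721977) was low in the fertile line BM21. Its L3 CPM was 64.3, 68.3, 69.4 and 62.1 in the parental pools and 7.42, 8.64, 9.09 and 8.26 in BM21. In adults it was 42.0 to 47.5 and 10.8 to 13.3. The log2 fold changes were -2.95 and -1.94. The 10 nearest tested genes had -0.91 to 0.28 in adults, 1 of them called, beside 19.6% of all genes.

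f (X 17232942 to 17280964), which encodes an actin-binding protein of bristles, was high in BM5. Its adult CPM was 2.71 to 4.79 in the parental pools, 10.9, 9.17, 9.42 and 9.21 in BM5 and 0.995 to 1.80 in BM1. The log2 fold change was 1.53 in adult BM5 and 1.98 in L3 BM5, and -1.28 in adult BM1. Of the 10 nearest tested genes 7 were called in adult BM5, beside 31.1% of all genes and 36.5% of the members. Their log2 fold changes ran from -0.125 to 2.86. In L3 BM5 the 10 nearest had 0.04 to 2.08, with 8 called, beside 43.9% of all genes and 53.2% of the members. The highest neighbour thus rose more than f at both stages. Muc12Ea, a mucin-like gene, was low in BM46, at 0.169 to 0.444 CPM in adults against 0.368 to 1.26 in the parental pools, which overlap; its L3 call was lost without any of 4 libraries (parental replicates 1 or 3, BM46 replicates 1 or 2), at -0.92 to -1.03.

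**Figure D5:**
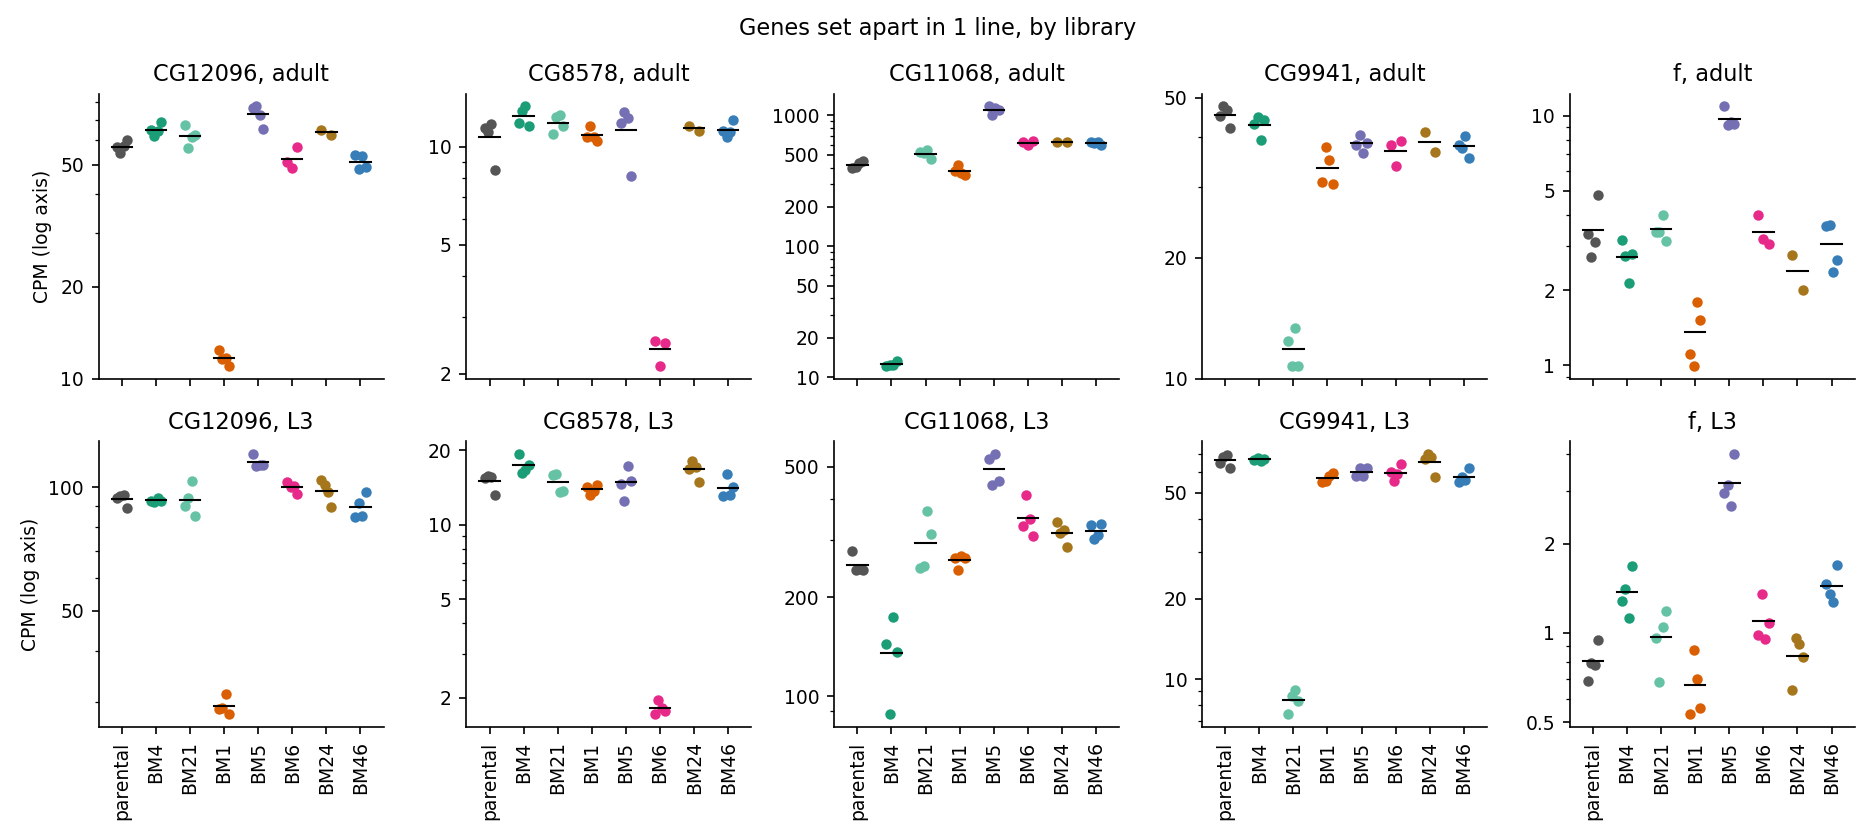
CPM of members that stand apart in a single line, by line and stage (log axis), with points for libraries with at least 1000000 counts and horizontal marks for group means. CG12096 is low in BM1 (11.02 to 12.4 CPM in adults against 54.7 to 60.0 in the parental pools), CG8578 in BM6, CG11068 in BM4 and CG9941 in BM21, while f is high in BM5.

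Other members separated the parental stock from most translocation lines, which all share the parental pools. The library codes in the labels open with a letter, and among adult libraries only the parental codes open with C. In adults the parental stock and that letter can therefore not be told apart. In L3 the parental stock shares its letter with BM1 and BM4. CG15760 was called lower in all 7 lines at both stages. Its adult CPM was 5.89 to 11.1 in the parental pools, 2.14 to 3.68 in BM1 and 3.07 to 3.91 in BM4, with log2 fold changes of -1.61 and -1.28. CG42271 was called lower in every line but BM46, where it had -0.14 in adults and 0.13 in L3. CG9518, a gene of the glucose-methanol-choline oxidoreductase cluster, was called higher in 6 lines in adults, with 2.15 in BM5, 2.00 in BM24 and 0.81 in BM4, and had 0.30 in BM1, not called.

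CG9572 (X 20148124 to 20155514) was variable in adults. It stood at 5.52 to 6.88 CPM in the parental pools, 9.46 to 12.4 in BM4 and 3.82 to 7.16 in BM46, and at no more than 2.03 in each library of the other 5 lines. Its log2 fold change was -4.25 in BM24, -3.65 in BM6, -3.05 in BM5, -2.98 in BM21 and -1.95 in BM1. In L3 it was at or under 0.301 CPM in all lines.

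Between stages, the region was lower in adult than in L3 testes of the parental stock. Of 752 tested members 234 were higher in adults and 320 lower, beside 36.1% and 38.5% of all tested genes, and the median log2 fold change was -0.17 against -0.05 over all genes. The median of the members was negative in each of the 8 lines, from -0.09 in BM5 to -0.34 in BM24, beside medians over all genes of -0.04 and -0.19 in those lines. With the chromosome 3 median subtracted the range was -0.04 in BM5 to -0.19 in BM24, and in BM5 the X genes below the limit had -0.10. With library-size scaling the median of all genes in the parental comparison moves by -0.41 and the split becomes 137 and 460. The order by expression level was the opposite of the median: the top quartile of the parental members had a median of 0.20, and X genes below the limit at the same levels one of 0.19. Per kb of gene length, the members tested at both stages had a median of 8.19 CPM per kb in adult and 9.80 in L3 parental pools, beside 10.2 and 11.6 for chromosome 3 genes.

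The greatest rises in adults were those of CG40486 (8.84), CG15449 (7.23) and CG9572 (6.35 on the log2 scale). CG40486 had 0 counts in parental L3 pools, so its fitted value depends on the prior count. Next came up, Tsf1 and wupA. up and wupA, which encode the muscle proteins troponin T and troponin I, went from 0.128 and 0.127 CPM to 7.24 and 5.92 CPM, by 5.93 and 5.46 on the log2 scale. The 11 muscle markers include up and wupA themselves, so they are not separate from these values. They went from medians of 0.27 (fertile lines) and 0.45 (sterile lines) in L3 to the adult medians given above. The part of muscle was not tested. Both up and wupA were called higher in adult BM1, at 1.49 and 1.51, in BM5, at 1.15 and 0.80, and in BM46, at 1.09 and 0.79. The BM5 call of wupA was lost without any 1 of 5 libraries (parental replicates 2, 3 and 4, BM5 replicates 3 and 4), at 0.66 to 0.75. up was called higher in adult BM6 too, at 0.82. Tsf1, an iron-binding transferrin made in fat body, went from 6.64 ± 1.72 to 294.2 ± 40.3 CPM (SD, n = 4). zyd, an ion exchanger of glia, CCKLR-17D3, a cholecystokinin-like receptor, and obst-A, a chitin-binding cuticle protein, also rose, by 4.21 to 5.26.

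The greatest fall was that of CG41562, by 2.46 on the log2 scale (SE 0.53, edgeR adjusted p = 0.00102), from 2.06 to 7.63 CPM in L3 to at most 1.59 CPM in adults. Yp3, a yolk protein gene, fell by 1.65 from 3.71 to 5.11 CPM to 0.368 to 1.70 CPM, and CG17601 and CG42577 fell by 1.44 and 1.32. The 6 tested betaNACtes genes, testis relatives of a ribosome-associated chaperone subunit, were all lower in parental adults, by 0.82 to 1.27 on the log2 scale, and are near-identical copies among which reads may be shared. betaNACtes1 stood at 23.7 to 27.9 CPM in L3 and 9.94 to 11.8 in adults. Phf7, which encodes a histone reader needed for male germline identity, stood at 79.6, 77.4, 85.6 and 72.4 CPM in L3 and 39.9, 40.3, 38.4 and 38.7 in adults, a fall of 0.97 (SE 0.068, edgeR adjusted p = 6.07e-08). rdgB and CG9570 rose, by 1.09 and 1.11. The sign of hydra, CG8565, CG32591, shi, exd, dome, NetA, RhoGAP19D and Sdic1 in this comparison, all called higher in adults, flips with library-size scaling.

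The sterile and fertile lines were compared on sums over each line, 5 against 3. In adult testes 0 of 862 tested members passed edgeR's test, beside 2.76% of all tested genes. An unadjusted p under 0.05 was found for 106 members (12.3%), beside 22.3% of all genes; DESeq2 called 41, beside 11.8%, and limma voom 4, beside 3.28%. In L3 testes 7 of 849 passed, beside 5.53% of all genes; 94 (11.1%) had an unadjusted p under 0.05, beside 21.7% of all genes, and DESeq2 called 32, beside 10.7%. The number called in L3 was 0 without BM4, 2 without BM5, 2 without BM6, 3 without BM46, 4 without BM1 and 15 without BM24. Of all tested genes 428, 504, 418, 505, 404 and 851 were called there, in the same order, and 726 with all lines. In adults the members called were 3 without BM24 and 1 without BM21, beside 378 and 144 of all genes.

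Of the 7, Tsf1, Him and Cyp4s3 were higher in the sterile lines, by 1.17 (SE 0.23, edgeR adjusted p = 0.017), 0.93 and 1.41; Cyp4s3 stood under 0.5 CPM. Tsf1 had line means of 7.59 to 13.9 CPM in the 5 sterile lines and of 4.13 to 6.64 in the 3 fertile ones, beside the fat body markers given above, which moved the same way. In adults its order was another one, with 619.5 CPM in BM1, 610.8 in BM24 and 142.6 in BM5; the libraries of BM24 stood at 605.8 CPM in replicate 1 and 615.8 in replicate 4, whose fat body markers were at 1.12 and 5.08. Him, an inhibitor of muscle differentiation, had L3 line means of 1.79 to 3.00 CPM against 1.16 to 1.31, and in adults 2.51 to 5.94 against 0.792 to 1.70, where the edgeR adjusted p was 0.0778. Spt7, a subunit of the SAGA histone acetyltransferase complex, was lower, at 14.8 to 16.9 CPM against 20.1 to 21.9 (-0.44, SE 0.083, edgeR adjusted p = 0.0159). The codes of the libraries in the labels open with a letter, 1 for all 4 libraries of a line and stage, and the labels do not say what it stands for. With that letter as a covariate the edgeR adjusted p of Tsf1, Him and Spt7 was 0.0637, 0.142 and 0.0789, and each call was also lost without single lines: BM4 or BM21 for Tsf1 (1.05 and 1.11), BM1 or BM4 for Spt7 (-0.41 and -0.43), and the parental stock, BM5, BM6, BM46, BM4 or BM21 for Him (0.85 to 0.97). Gss2 and the ribosomal RNA pseudogenes 28SrRNA-Psi:CR45859 and 28SrRNA-Psi:CR40741 were lower, with SDs within lines as large as 7.33 CPM around a mean of 6.41 in L3 BM4 for Gss2, and the pseudogenes share sequence with rRNA.

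The change from L3 to adult was not called different between the sterility classes for any member. In edgeR's test of that interaction, 0 of 885 members and 0% of all 13994 tested genes passed, 63 members (7.12%) had an unadjusted p under 0.05, beside 10.8% of all genes, DESeq2 called 5, beside 1.36%, and limma voom 0. Tsf1, which was called in L3 alone, had an interaction of -0.60 (SE 0.58, edgeR adjusted p = 0.737).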

How the data were processed

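RNA-seq read counts per gene for 64 testis libraries were taken as deposited by the authors. Per the submitters' processing notes, the tools were bcl2fastq 1.8, cutadapt, HISAT2 2.1.0 and featureCounts 1.6.1; per the labels' protocols, 350 ng of total RNA with spike-ins went into stranded poly(A) libraries read as 50-base single ends. No source used here names the build or the strand and multi-mapping settings of counting, so overlapping, antisense and near-identical genes are uncertain.

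Groups come from the labels. Counts were tested with edgeR 4.0.16 in R 4.3.3 (limma 3.58.1): TMM scaling, filterByExpr and the quasi-likelihood F test. Benjamini-Hochberg adjustment ran over all tested genes, with a threshold of 0.05, and SE is the absolute log2 fold change over the square root of F. Line comparisons were fitted per stage on 32 libraries, sterility on sums per line, and adult against L3 within each line. CPM used TMM over all libraries, with a prior count of 2 for log values. Scripts were tested on simulated data. Alternatives were DESeq2 1.42.0, limma voom, other scalings and filters, a replicate block, the letter that opens a library code as a covariate and leaving out libraries or lines.

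Replicate numbers do not pair the pools: same-numbered adult and L3 pools had a median correlation of deviations of -0.0209. Of the 88 replicate pairs of libraries with at least 1000000 counts, none agreed within sampling noise. The members, the gene lists and the limit at 13.13 Mb were chosen with earlier results of these data known. Named genes were the largest changes with no overlap between groups (mean log2 CPM of at least 1), the highest members, the list members and the genes next to the limit; those apart in a single line were chosen after their values were seen. Promoter and protein sequences were not used here.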

Additional observations from a re-analysis of the deposited data

Results flagged for a closer look

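In 9 of 168 groups of 4 libraries, 1 library stood apart from the other 3 by Dixon's criterion at 95%, and chance gives about 1 in 20 such groups. These were CG12096 in L3 BM5 replicate 1 (120.3 CPM), CG8578 in L3 parental replicate 4 (13.16), CG11068 in L3 BM1 replicate 2 (242.3), L3 parental replicate 1 (277.8) and adult BM46 replicate 4 (597.3), f in adult BM5 replicate 1 (10.87), Muc12Ea in L3 BM4 replicate 3 (2.728), Tsf1 in L3 BM4 replicate 3 (6.151) and Him in L3 BM21 replicate 2 (1.001).

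For other results, every library of 1 line lay above the parental range and every library of another below it; the difference between those lines was not tested, and they share the parental pools. The level of the region relative to chromosome 3 was 0.1096 in adult BM5 and -0.2896 in adult BM1, and 0.2076 and -0.0741 in L3. With medians over genes in place of means, the L3 BM1 libraries overlapped the parental range. CG12096 stood at 73.02 CPM in adult BM5 and 11.67 in adult BM1, and at 115 and 29.3 in L3. CG11068 stood at 1102 CPM in adult BM5 and 12.56 in adult BM4, and at 491.5 and 135.9 in L3. CG8578 stood at 17.42 CPM in L3 BM4 and 1.814 in L3 BM6, and Muc12Ea at 2.874 in L3 BM1 and 0.403 in L3 BM46. In adults f stood at 9.666 CPM in BM5 and 1.356 in BM1, CG8565 at 2425 in BM5 and 892.9 in BM1, CG9572 at 10.9 in BM4 and 0.3287 in BM24, and Tsf1 at 619.5 in BM1 and 142.7 in BM5.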

How the results depend on the processing

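Of the 314 results for single genes, 4950 values were recomputed under other settings; 4619 kept direction and side of the threshold, 322 lost a call and 9 changed sign. Library-size scaling gave those 9 in the parental adult against L3 comparison, at -0.1977 for NetA, -0.0637 for CG32591, -0.1053 for CG8565, -0.0018 for shi, -0.1544 for exd, -0.055 for dome, -0.0015 for Sdic1, -0.1646 for RhoGAP19D and -0.012 for hydra. DESeq2 called fewer adult members, with 178 in BM1, 94 in BM6, 108 in BM24, 101 in BM46, 28 in BM4 and 60 in BM21, and 278 and 277 between stages in BM6 and BM24; it called 41 and 32 for sterility in adults and L3 and 5 for the interaction. Without the accessory gland libraries, a setting chosen after seeing the data, 232 were called in adult BM1, 103 in BM6 and 47 in BM4. The 103 rest on BM6 replicate 4 and on replicate 3, which held 20387 counts. Without the 3 shallow libraries 157 were called in BM4 and 210 in BM21, and 303 to 440 in the sterile lines. Leaving out 1 library gave 130 to 249 in adult BM24 and 73 to 114 in adult BM21. Leaving out 1 line gave 0 to 3 for sterility in adults and 0 to 15 in L3. The 3 and the 15 stood beside 378 and 851 of all genes. For sterility, library-size scaling called 7 and voom 4 in adults, beside 485 and 446 of all genes. The letter of the library code as a covariate called 1 in L3, beside 238. In that comparison the replicate block took single libraries in place of line sums, so that pools of a line counted as separate lines. It called 210 of 763 members in adults and 215 of 754 in L3, beside 4356 and 4446 of all genes. The block splits lines into numbered pools that the numbers do not pair, and it moved no other count of members by over 1.5 times. Subtracting the chromosome 3 median moved the member median to 0.0298 in adult BM21, 0.0534 and 0.0478 in L3 BM4 and BM21, and, between stages, to -0.1114 in the parental stock, -0.1725 in BM1, -0.0405 in BM5, -0.1515 in BM6, -0.1904 in BM24, -0.1434 in BM46, -0.118 in BM4 and -0.1198 in BM21; without antisense and long non-coding members it was -0.1069 in BM5 and -0.3553 in BM24. The level difference from the parental stock, with medians in place of means, was -0.1015 in adult BM1, 0.12 in adult BM5, -0.026 in adult BM6, -0.0208 in L3 BM1 and -0.0239 in L3 BM6. Against all autosomes it was -0.0475 in adult BM6, 0.0466 in adult BM24, 0.0523 in adult BM21, -0.0436 in L3 BM6 and 0.1034 in L3 BM24; with shallow libraries it was -0.0066 in adult BM24. The cause of these shifts was not tested.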
